A study of Mus musculus with 14 samples.

Results

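Zoledronic acid given after ovariectomy was compared with sham surgery in the mouse tibia, in 6 of the 14 RNA-seq libraries of the study, 3 per group, chosen by their treatment labels. All mice were wild-type C57Bl/6 females. The sham group (n = 3) is labelled a sham control, and whether these mice also received an injection of vehicle is not given in the sources used here. The OVX-ZA group (n = 3) was ovariectomized (OVX) and received zoledronic acid (ZA), starting 2 to 4 days after surgery and lasting 8 weeks. A vehicle group, OVX-PBS (n = 3), was ovariectomized and received PBS over the same time, and its values stand beside the others because sham and OVX-ZA differ in both the surgery and the drug. The 2 remaining groups, OVX-HA (hippuric acid, n = 3) and OVX-PPA (3'(3'hydroxyphenyl) propionic acid, n = 2), were also ovariectomized and appear here mainly as ranges over the 11 libraries without zoledronic acid. The sources used here give neither doses nor ages, nor whether each library came from a separate mouse, so the p-values measure the spread between these libraries.

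Zoledronic acid is a nitrogen-containing bisphosphonate that binds bone mineral and enters osteoclasts, the multinucleated cells that resorb bone. There it blocks farnesyl diphosphate synthase, an enzyme of the mevalonate pathway, so that small GTPases lose the lipid anchor they need and resorption stops. Osteoclasts form when monocytic precursors exposed to RANKL fuse, and osteoblasts, which lay down type I collagen and osteocalcin, are coupled to them, so that drugs that stop resorption usually slow formation as well. Loss of estrogen after ovariectomy speeds up both.

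Depth was 29.2 to 32.6 M estimated counts per sham library and 11.9 to 25.1 M per OVX-ZA library, the smallest being OVX-ZA replicate 1. Bone transcripts were abundant in all 6, but so were those of other tissues. Skeletal muscle genes took 5.67 to 9.54% of counts in sham and 7.90 to 10.5% in OVX-ZA. Mobp, a myelin gene of the central nervous system, read 153 to 507 CPM (counts relative to the library's total, scaled by TMM) and Scn10a, a sensory neuron channel, 20.8 to 74.0 CPM over the 6 libraries. Glycam1, made by lymph node vessels, read 32.5 CPM in sham replicate 3, 14.6 and 38.6 in OVX-ZA replicates 1 and 2 and at most 0.394 in the other 3 libraries. The libraries with Glycam1 at 14.6 CPM or more are called lymph-carrying below, and the comparison was also made within them (sham replicate 3 against OVX-ZA replicates 1 and 2) and within the rest (sham replicates 1 and 2 against OVX-ZA replicate 3).

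The osteoclast genes Ocstamp, Dcstamp and Ctsk stood above sham in every OVX-ZA library, and the osteoblast genes for osteocalcin and type I collagen stood below it in every OVX-ZA library. Across all 21761 genes tested no single gene passed edgeR's quasi-likelihood test with Benjamini-Hochberg (BH) adjustment (0 genes, 0%; smallest adjusted p = 0.207). At an unadjusted p below 0.05 there were 607 genes (2.79%), of which 284 (1.31%) were higher and 323 (1.48%) lower in OVX-ZA. The Wald test of DESeq2, run among 27 alternatives, called 15 genes, 12 higher and 3 lower. In 22 of the 27 alternatives 0 genes were called, but many of these left out libraries and so had less power to call any. All 3 OVX-ZA libraries exceeded all 3 sham libraries in 754 genes (3.46% of those tested) and lay below them in 1126 (5.17%). Genes with such non-overlapping libraries are called separate below, and these 2 percentages are the background against which each list's count is read. The lists were chosen with earlier results of these data known, so these contrasts are descriptions. The median log2 difference over all genes tested was -0.05.

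**Figure D1:**
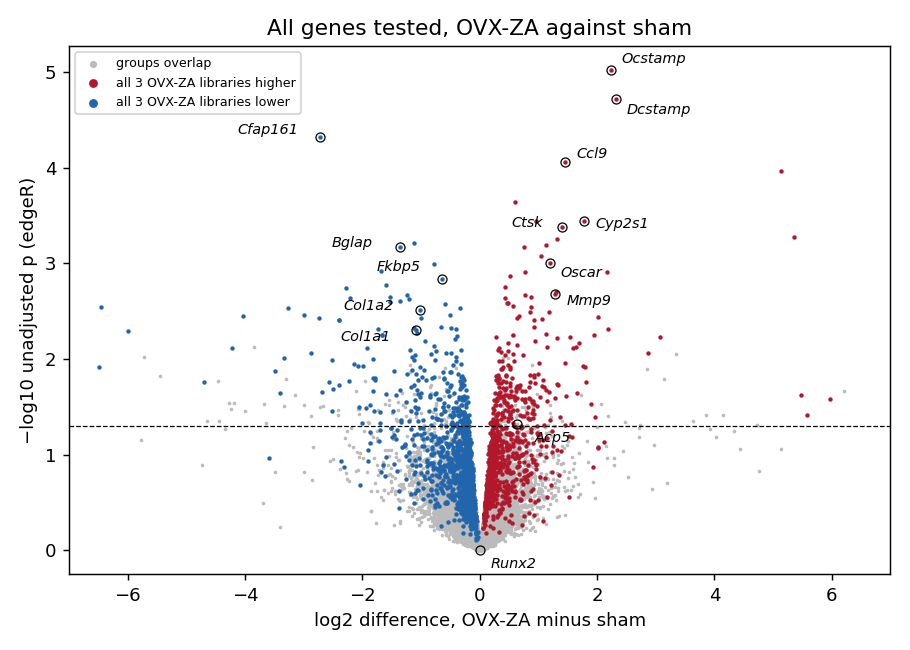
Each point is 1 of 21761 genes, with the log2 difference of OVX-ZA minus sham on the x axis and −log10 of the unadjusted edgeR p on the y axis (the dashed line marks the 0.05 level); colours mark genes whose 3 OVX-ZA libraries all lie above or all below the 3 sham libraries. Ocstamp and Dcstamp have the smallest p, with log2 differences of 2.23 and 2.32, and Cfap161 and Bglap lie on the other side at -2.72 and -1.36.

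The gene with the smallest p was Ocstamp (ENSMUSG00000027670.4, mm10 chr2:165393760-165400405, minus strand), a membrane protein needed for osteoclast precursors to fuse. It read 3.29, 3.83 and 2.06 CPM in sham replicates 1 to 3 and 19.9, 9.16 and 14.3 CPM in OVX-ZA replicates 1 to 3. The lowest OVX-ZA library was thus above the highest sham library, and the fitted difference was 4.69-fold (log2 2.23 ± 0.31, standard error; edgeR BH-adjusted p = 0.207). OVX-PBS read 3.09, 2.71 and 2.40 CPM, on the level of sham, and over all 11 libraries without zoledronic acid Ocstamp ran from 1.86 to 3.83 CPM.

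Dcstamp (ENSMUSG00000022303.9, chr15:39745930-39760938, plus strand), its partner in cell fusion, read 2.74, 4.90 and 2.74 CPM in sham and 26.0, 12.3 and 13.9 in OVX-ZA. The libraries were again separate, at 4.99-fold (log2 2.32 ± 0.34; edgeR BH-adjusted p = 0.209). OVX-PBS read 4.06, 3.26 and 4.24 CPM. DESeq2 called both fusion genes (BH-adjusted p = 2e-08 for Ocstamp and 1.58e-07 for Dcstamp). OVX-ZA replicate 1, the shallowest library, was the highest in both, and without it the log2 differences were 1.94 and 1.92. Within the lymph-carrying libraries they were 2.84 and 2.83, and within the other 3 they were 2.01 and 1.86.

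Among the resorption genes, Ctsk (ENSMUSG00000028111.4, chr3:95499256-95509362, plus strand), the cathepsin K protease that digests bone collagen, read 177, 226 and 140 CPM in sham and 633, 359 and 444 in OVX-ZA. Every OVX-ZA library lay above every sham library, at 2.64-fold (log2 1.40 ± 0.29; edgeR BH-adjusted p = 0.989, DESeq2 BH-adjusted p = 0.00502). OVX-PBS read 186, 176 and 180 CPM, inside the sham range. Mmp9, a gelatinase of osteoclasts and neutrophils, read 223, 353 and 204 CPM in sham against 899, 462 and 546 (log2 1.29 ± 0.33). The proton pump subunit Atp6v0d2 read 24.1, 33.3 and 21.5 CPM against 74.4, 43.9 and 46.3 (1.06 ± 0.30). Both were separate, and in both OVX-ZA replicate 1 was the highest library. DESeq2 called neither (BH-adjusted p = 0.108 for Mmp9 and 0.277 for Atp6v0d2).

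Receptors and regulators of the osteoclast lineage were measured next. Oscar, the collagen receptor that costimulates osteoclast formation, read 5.55, 7.52 and 4.54 CPM in sham and 19.2, 10.7 and 10.7 in OVX-ZA (log2 1.19 ± 0.28; DESeq2 BH-adjusted p = 0.0454). Tnfrsf11a, which encodes the RANKL receptor RANK, read 7.09, 8.59 and 6.09 against 14.8, 9.70 and 10.3 CPM (0.67 ± 0.19). The AP-1 family factor Jdp2 differed by 0.78 ± 0.18, and the sodium and proton exchanger gene Slc9b2, which is induced in osteoclasts, by 0.88 ± 0.23. These 4 genes were separate. DESeq2 did not call Tnfrsf11a, Jdp2 or Slc9b2 (BH-adjusted p = 0.274, 0.0984 and 0.235). Nfatc1, the main transcription factor of osteoclast differentiation, read 48.7, 54.8 and 63.1 CPM in sham and 99.3, 61.1 and 84.4 in OVX-ZA (0.55 ± 0.16), so that OVX-ZA replicate 2 fell inside the sham range.

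Other classical osteoclast markers overlapped between the groups. Acp5, the tartrate-resistant acid phosphatase, read 273, 316 and 234 CPM in sham and 594, 313 and 364 in OVX-ZA (log2 0.63 ± 0.28, 95% interval 0.01 to 1.25). Without OVX-ZA replicate 1 its difference was 0.30. Tcirg1, the osteoclast proton pump subunit, differed by 0.53 ± 0.26, the chloride exchanger Clcn7 by 0.27 ± 0.12, the calcitonin receptor Calcr by 0.32 ± 0.30 and the M-CSF receptor Csf1r by 0.33 ± 0.17, all with overlapping libraries. The integrin subunit Itgb3 (-0.13 ± 0.30) and carbonic anhydrase Car2 (-0.30 ± 0.38), which osteoclasts share with blood cells, overlapped as well. Calcr and Itgb3 changed sign between the subsets of libraries, at 0.94 and 0.37 in the lymph-carrying ones and -0.38 and -0.53 in the rest.

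**Figure D2:**
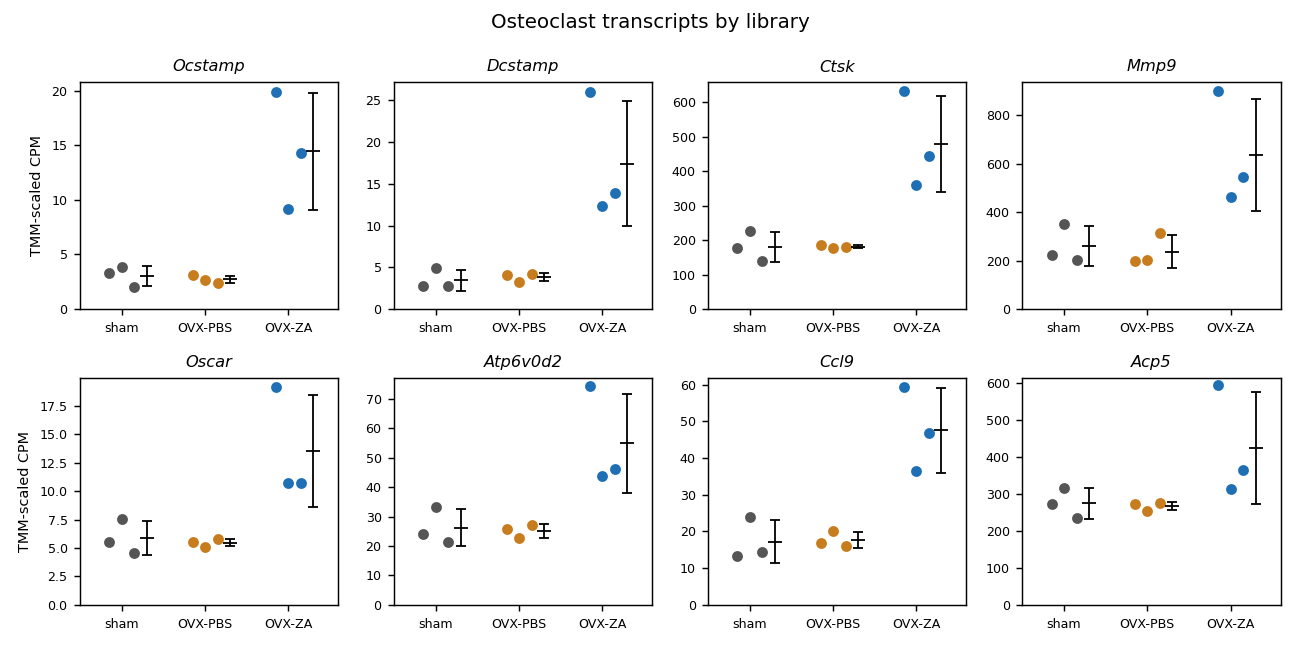
Each panel shows 1 gene in TMM-scaled CPM (linear y axis from 0), with 1 point per library in sham, OVX-PBS and OVX-ZA and the mean ± SD (n = 3) in black. In the first 7 panels all 3 OVX-ZA points lie above the other 6, while in Acp5 OVX-ZA replicate 2 (313 CPM) lies just under sham replicate 2 (316 CPM).

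Counted over lists, 7 of 17 tested genes of osteoclast fusion and identity were separate and higher (41.2%, against 3.46% of all genes tested) and 0 lower, with a list median of 0.29. Beside the genes named above these were Siglec15 (0.73 ± 0.41) and Mitf (0.29 ± 0.12). Of 18 genes for proteases and acid secretion, 6 were separate and higher and 0 lower, with a median of 0.22, among them Mmp14 (0.58 ± 0.19) and Mmp13 (0.84 ± 0.33), collagenases that osteoblasts and hypertrophic chondrocytes also make. No member of either list passed the adjusted edgeR test, and both lists were chosen with earlier results of these data known. In bulk tissue, more cells of a type and more RNA per cell cannot be told apart.

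The ligands upstream of these genes were also measured. Tnfsf11, which encodes RANKL, read 1.55, 2.08 and 2.09 CPM in sham and 2.56, 4.20 and 3.88 in OVX-ZA (log2 0.90 ± 0.36, separate). Here OVX-ZA replicate 1 was the lowest of its group, unlike in the fusion genes. Its decoy receptor Tnfrsf11b differed by 0.08 ± 0.27 with overlapping libraries, and Csf1, which encodes M-CSF, by 0.18 ± 0.10 with separate ones. OVX-PBS differed from sham by -0.12 in Tnfsf11 and -0.18 in Csf1.

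Ccl9 (ENSMUSG00000019122.8, chr11:83572919-83578636, minus strand), a chemokine secreted by osteoclasts and other myeloid cells, read 13.2, 24.0 and 14.5 CPM in sham and 59.4, 36.4 and 46.8 in OVX-ZA. It was separate at 2.75-fold (log2 1.46 ± 0.25; edgeR BH-adjusted p = 0.469, DESeq2 BH-adjusted p = 0.000159). Several genes picked after their values were seen pointed the same way. Slc37a2, a sugar phosphate transporter of osteoclast lysosomes, read 32.8, 36.8 and 25.5 CPM against 109, 56.8 and 70.6 (1.31 ± 0.28). The actin-severing gene Scin read 4.68, 4.65 and 5.66 against 14.9, 7.82 and 10.3 (1.13 ± 0.25), and the lysosomal membrane gene Gpr137b 30.5, 34.7 and 27.1 against 66.0, 44.0 and 45.0 (0.74 ± 0.16). The potassium channel gene Kcnj15 (0.95 ± 0.19), the calcium-binding S100a4 (1.05 ± 0.24) and the integrin subunit Itgav (0.51 ± 0.12), which forms the osteoclast adhesion receptor with Itgb3, were separate as well. DESeq2 called Slc37a2, Kcnj15, Scin, S100a4 and Gpr137b and not Itgav.

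Most markers of the wider macrophage lineage overlapped between the groups. Of 24 tested monocyte and macrophage genes 2 were separate and higher (median of the list 0.02). These were Cd68, a lysosomal glycoprotein that osteoclasts also carry, with 20.2, 34.1 and 22.5 CPM in sham and 62.9, 39.9 and 42.9 in OVX-ZA (0.92 ± 0.26), and Ms4a7 (0.67 ± 0.25). Of 18 plasma cell genes 2 were separate and higher and 2 lower. Prdm1, a repressor that also acts in osteoclast formation, read 5.22, 5.01 and 4.22 CPM against 12.1, 8.62 and 6.93 (0.93 ± 0.26), and the proteoglycan gene Sdc1 differed by 0.64 ± 0.20. Fkbp11, a folding factor of secretory cells, was lower (-0.71 ± 0.31), as was the antibody gene Ighg1, at 13, 19.7 and 19.5 against 10.3, 6.61 and 6.68 CPM (-1.16 ± 0.58).

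The relation between osteoclast genes within a library also differed between the groups, and such ratios do not depend on how libraries are scaled. The pairs were chosen after the values were seen and are given as a description. Ctsk divided by Acp5 was 0.648, 0.715 and 0.601 in sham and 1.06, 1.15 and 1.22 in OVX-ZA. In all 11 libraries without zoledronic acid this ratio stayed between 0.601 and 0.715, and each OVX-ZA library lay above that range. Dcstamp over Acp5 was 0.01 to 0.0155 in the 11 libraries and 0.0382 to 0.0437 in OVX-ZA, and Mmp9 over Acp5 0.709 to 1.14 against 1.48 to 1.51. By contrast Tcirg1 over Acp5 was 0.205 to 0.268 in OVX-ZA, inside the range of the others (0.191 to 0.317). Clcn7 over Acp5 leaned the other way, at 0.115 to 0.158 in OVX-ZA against 0.136 to 0.266 in the others, with overlap. OVX-ZA replicate 1, the highest library of its group in both Ctsk and Acp5, had the lowest Ctsk/Acp5 ratio of the 3.

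Osteoblast genes showed the opposite order. Bglap (ENSMUSG00000074483.2, chr3:88383501-88384464, minus strand), which encodes osteocalcin, a matrix protein of mature osteoblasts, read 140, 163 and 132 CPM in sham and 61.9, 51.1 and 56.9 in OVX-ZA. All OVX-ZA libraries were below all sham libraries, with sham 2.56-fold higher (log2 -1.36 ± 0.30; edgeR BH-adjusted p = 0.989, DESeq2 BH-adjusted p = 0.0371). OVX-PBS read 202, 183 and 193 CPM and lay above sham, and the 11 libraries without zoledronic acid ran from 129 to 361. Bglap2 read 67.3, 77.4 and 58.8 CPM in sham against 36.6, 28.7 and 39.8 (-0.95 ± 0.33), and Bglap3 7.26, 7.38 and 7.03 against 3.79, 3.40 and 3.22 (-1.06 ± 0.31). The 3 genes are near-identical neighbours, so how reads were divided among them is uncertain. Their shared direction is therefore not 3 independent results.

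Type I collagen, the main protein of bone matrix, followed. Col1a1 (ENSMUSG00000001506.10, chr11:94936224-94953042, plus strand) read 2023, 2511 and 2103 CPM in sham and 1233, 724 and 1181 in OVX-ZA (log2 -1.08 ± 0.32; edgeR BH-adjusted p = 1). Col1a2 read 2370, 2487 and 1877 against 1237, 858 and 1212 CPM (-1.03 ± 0.28). In both chains the groups were separate, OVX-ZA replicate 2 was the lowest library, and OVX-PBS averaged above sham with log2 differences of 0.46 and 0.44. DESeq2 called neither chain (BH-adjusted p = 0.425 for Col1a1 and 0.235 for Col1a2). The citrate transporter Slc13a5 (-0.99 ± 0.28) and Cthrc1 (-0.78 ± 0.24), a secreted protein from the list of osteoclast to osteoblast coupling, were separate and lower too. In that list of 15 tested genes Ctsk and Ccl9 were separate and higher, and the median was 0.05. Cpz, a Wnt-binding carboxypeptidase named after its value was seen, read 5.45, 5.41 and 2.96 CPM against 1.73, 2.06 and 2.15 (-1.21 ± 0.32).

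The transcription factors and early markers of osteoblasts lay closer to sham. Runx2, which commits cells to the lineage, read 24.9, 31.6 and 24.6 CPM in sham and 29.4, 23.8 and 28.1 in OVX-ZA (log2 -0.0002 ± 0.23, 95% interval -0.51 to 0.51). Sp7, the next factor, was separate by a narrow gap, at 22.4, 28.5 and 23.9 against 21.9, 17.4 and 20.6 CPM (-0.32 ± 0.33). Alkaline phosphatase, encoded by Alpl, differed by 0.16 ± 0.24 and bone sialoprotein, encoded by Ibsp, by 0.08 ± 0.34. In these 2 genes and in Runx2 the libraries of the groups overlapped.

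Of 26 tested osteoblast genes 10 were separate and lower (against 5.17% of all genes tested) and 2 higher, Postn (0.47 ± 0.19) and Mmp13, with a list median of -0.20. The others on the lower side were Smpd3 (-0.36 ± 0.23), a sphingomyelinase needed for mineralization, the osteoblast membrane gene Ifitm5 (-0.82 ± 0.41) and Serpinf1 (-0.35 ± 0.18), whose loss causes brittle bone. Bglap, Bglap2 and Bglap3, whose reads may be shared, are among the 10 lower genes. The median of the same list was 0.35 for OVX-PBS against sham. Of 26 genes for collagens and matrix processing, 6 were separate and lower and 0 higher. Beside type I collagen these were Col11a1 (-0.45 ± 0.19), Col5a2 (-0.32 ± 0.17), Sparc (-0.30 ± 0.17) and P3h1 (-0.23 ± 0.13). No gene of either list passed the adjusted edgeR test.

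**Figure D3:**
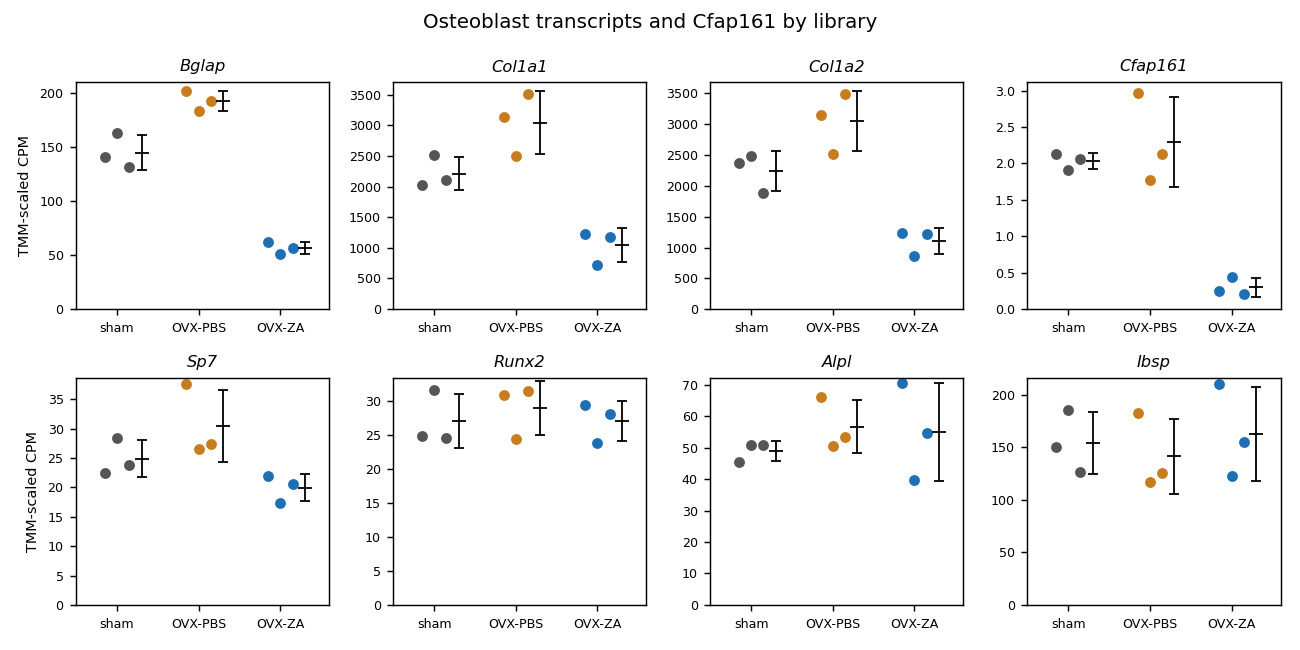
Osteoblast genes and Cfap161 in TMM-scaled CPM (linear y axis from 0), with 1 point per library in sham, OVX-PBS and OVX-ZA and the mean ± SD (n = 3) in black. Bglap, Col1a1, Col1a2 and Cfap161 show all OVX-ZA points under the other 6, whereas Runx2, Alpl and Ibsp overlap.

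Set against Runx2 within each library, Bglap and Col1a1 stood lower in every OVX-ZA library than in every sham library, whereas Ibsp did not. Bglap over Runx2 was 5.63, 5.14 and 5.36 in sham and 2.11, 2.15 and 2.03 in OVX-ZA, and 5.03 to 8.61 over the 11 libraries without the drug. Col1a1 over Runx2 was 79.4 to 85.5 in sham and 30.5 to 42.0 in OVX-ZA. Sp7 over Runx2 was 0.731 to 0.747 in OVX-ZA, below the lowest of the other 11 libraries (0.792). Alpl over Runx2 overlapped with those 11 (1.67 to 2.40 against 1.52 to 2.29), as did Ibsp over Runx2 (5.17 to 7.19 against 3.37 to 6.02). These pairs too were chosen after the values were seen.

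**Figure D4:**
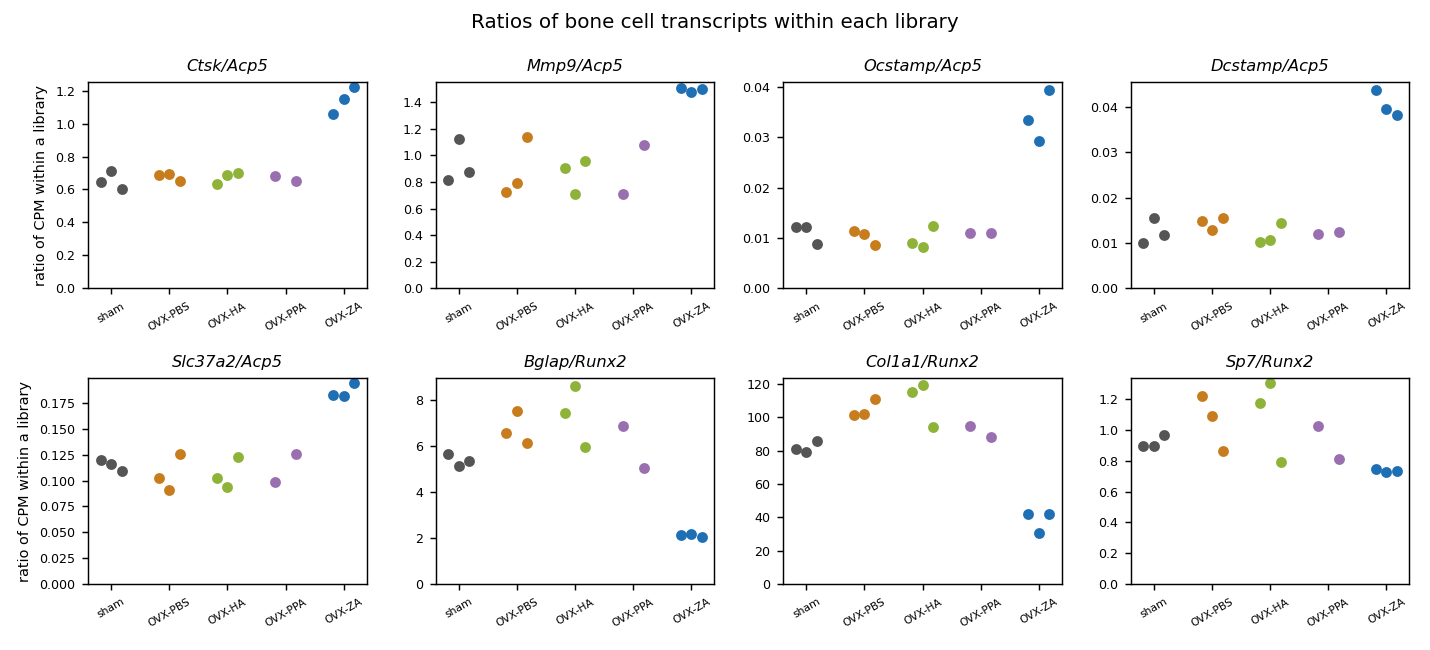
Ratio of the CPM of 2 genes within the same library (linear y axis from 0), 1 point per library, for all 5 groups of the study. The 3 OVX-ZA libraries lie apart from the other 11 in each of the 8 panels, which were chosen after the values were seen. They lie above them for the osteoclast genes plotted over Acp5 and below them for Bglap, Col1a1 and Sp7 over Runx2. Not plotted are Tcirg1 and Clcn7 over Acp5 and Alpl and Ibsp over Runx2, in which OVX-ZA overlapped with the other 11.

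Osteocyte genes, from the cells embedded in bone, were divided. Of 14 tested, Dmp1 and Phex were separate and lower and Mepe was separate and higher, and the list median was 0.02. Dmp1, which promotes mineralization, read 23.6, 27.7 and 19.7 CPM in sham and 18.9, 13.4 and 18.7 in OVX-ZA (log2 -0.48 ± 0.31). The phosphate-regulating endopeptidase gene Phex read 11.8, 13.2 and 9.63 against 7.09, 6.57 and 8.13 (-0.67 ± 0.30), and the matrix phosphoglycoprotein gene Mepe 9.29, 12.6 and 10.6 against 19.6, 13 and 17.5 (0.62 ± 0.44). Sost, the Wnt inhibitor sclerostin, read 6.71, 8.17 and 8.40 against 13.8, 6.52 and 13.6 CPM (0.54 ± 0.46), with OVX-ZA replicate 2 below all sham libraries and the other 2 above.

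The promoters below are shown because their genes carry the 2 opposite patterns, 3 from the higher side (Ctsk, Oscar, Ccl9) and 2 from the lower (Bglap, Col1a2). They are RefSeq sequences of build GRCm38.p6, from 250 bases before to 50 bases after the annotated start. The table used held a promoter for 148 of the 209 genes for which values were drawn up. Capitals mark matches to AP-1 (TGANTCA), the NFAT core (GGAAA) and RUNX (TGTGGT), each on either strand, and to a TATA box (TATAAA) on the gene's own strand; where matches overlap, the capitals run together.
Ctsk, chr3:95498960-95499259, plus strand: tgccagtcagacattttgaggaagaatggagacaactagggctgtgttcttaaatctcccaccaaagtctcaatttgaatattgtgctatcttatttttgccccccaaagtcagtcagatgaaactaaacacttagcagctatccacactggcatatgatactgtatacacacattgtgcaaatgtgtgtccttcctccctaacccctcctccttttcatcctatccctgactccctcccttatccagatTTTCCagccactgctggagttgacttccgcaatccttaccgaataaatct
Oscar, chr7:3616108-3616407, minus strand: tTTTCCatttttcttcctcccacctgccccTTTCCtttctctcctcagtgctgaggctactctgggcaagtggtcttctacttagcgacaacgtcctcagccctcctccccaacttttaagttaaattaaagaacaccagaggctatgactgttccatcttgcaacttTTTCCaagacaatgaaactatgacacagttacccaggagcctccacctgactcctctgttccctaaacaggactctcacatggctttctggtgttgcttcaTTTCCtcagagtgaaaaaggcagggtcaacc
Ccl9, chr11:83578587-83578886, minus strand: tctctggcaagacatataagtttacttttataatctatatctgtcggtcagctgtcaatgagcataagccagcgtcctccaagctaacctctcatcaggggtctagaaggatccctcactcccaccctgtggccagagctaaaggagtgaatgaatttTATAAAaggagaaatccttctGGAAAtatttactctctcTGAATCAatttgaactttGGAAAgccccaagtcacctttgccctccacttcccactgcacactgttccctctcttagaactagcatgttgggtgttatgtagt
Bglap, chr3:88384417-88384716, minus strand: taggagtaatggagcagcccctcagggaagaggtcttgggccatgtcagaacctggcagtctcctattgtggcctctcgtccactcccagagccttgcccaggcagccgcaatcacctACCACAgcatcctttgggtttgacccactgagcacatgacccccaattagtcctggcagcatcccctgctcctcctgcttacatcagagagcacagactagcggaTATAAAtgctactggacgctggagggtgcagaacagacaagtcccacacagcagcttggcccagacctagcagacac
Col1a2, chr6:4505368-4505667, plus strand: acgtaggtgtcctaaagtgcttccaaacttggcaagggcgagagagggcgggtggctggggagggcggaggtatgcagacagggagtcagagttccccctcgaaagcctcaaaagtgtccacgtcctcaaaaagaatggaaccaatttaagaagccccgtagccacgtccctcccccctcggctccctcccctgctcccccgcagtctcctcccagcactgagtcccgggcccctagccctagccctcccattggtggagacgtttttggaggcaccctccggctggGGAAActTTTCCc
Ctsk held 1 NFAT core match and Oscar held 4, while Ccl9 held 1 AP-1 match that begins 53 bases before the start, 2 NFAT core matches and 1 TATA match. Bglap held a TATA match that begins 27 bases before the start and a RUNX match 132 bases before it, and Col1a2 held 2 NFAT core matches. Over all 32851 promoters of the table, 7.81% held the AP-1 letters, 61.3% the NFAT core, 16.8% the RUNX letters and 8.32% the TATA letters. The matches describe these windows and do not show binding.

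On the lower side, the gene with the smallest p was Cfap161 (ENSMUSG00000011154.17, chr7:83774101-83794880, minus strand), a component of cilia and flagella. It read 2.13, 1.92 and 2.06 CPM in sham and 0.247, 0.447 and 0.206 in OVX-ZA, with sham 6.58-fold higher (log2 -2.72 ± 0.44; edgeR BH-adjusted p = 0.35, DESeq2 BH-adjusted p = 0.000778). OVX-PBS read 2.97, 1.77 and 2.13 CPM, and the 11 libraries without zoledronic acid ran from 1.41 to 4.01. This gap between groups was the widest, as a fold, of the 10 genes named by smallest p.

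Cyp2s1 (ENSMUSG00000040703.11, chr7:25802475-25816913, minus strand), a cytochrome P450, read 3.94, 3.92 and 3.28 CPM in sham and 15.5, 9.65 and 13.3 in OVX-ZA (3.44-fold, log2 1.78 ± 0.36; edgeR BH-adjusted p = 0.981, DESeq2 BH-adjusted p = 0.00502). OVX-PBS read 1.26, 2.10 and 2.98 CPM, all below sham, so that OVX-ZA stood above both other groups. Myof, a membrane repair and fusion protein, read 15.8, 15.9 and 15.2 CPM in sham and 26.7, 20.3 and 24.1 in OVX-ZA (0.60 ± 0.12). The sarcolipin gene Sln, a calcium pump regulator of muscle, read 36.9, 42.9 and 38.4 against 22.4, 19.1 and 27.2 (-0.78 ± 0.18). Without zoledronic acid Sln read 24.7, 39.6 and 24.8 CPM in OVX-HA and 27.9 and 29.7 in OVX-PPA, so OVX-ZA overlapped with libraries lacking the drug. Against sham it was lower although the muscle list as a whole was not, with 24 of 30 muscle genes above sham, 0 separate and a median of 0.27.

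Some genes lay on the same side of sham in both OVX-PBS and OVX-ZA, none of them past the adjusted edgeR test. The 2 comparisons share the sham libraries, so the values are given side by side. Esr1, the estrogen receptor alpha, read 20.1, 15.3 and 22.5 CPM in sham, against 28.8, 25.2 and 23.6 in OVX-PBS, while the OVX-ZA libraries read 30.1, 27.9 and 27.5 (log2 0.42 and 0.56 against sham). Every library of OVX-PBS and OVX-ZA was above every sham library. In the other ovariectomized groups Esr1 read 22.47, 18.29 and 23.99 CPM in OVX-HA, overlapping with sham, and 23.44 and 25.81 in OVX-PPA. Greb1, an estrogen-induced gene, read 7.26, 2.76 and 1.95 CPM in sham, against 1.60, 1.46 and 1.65 in OVX-PBS, while the OVX-ZA libraries read 2.14, 1.88 and 1.28. Its difference of -1.19 ± 0.41 was -0.43 without sham replicate 1 and 0.06 within the lymph-carrying libraries.

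Fkbp5, a target of the glucocorticoid receptor, read 31.8, 47.7 and 36.3 CPM in sham, against 30.7, 22.4 and 26.1 in OVX-PBS, while the OVX-ZA libraries read 26.6, 23.3 and 24.1 (log2 -0.55 and -0.65). Both OVX-PBS and OVX-ZA were below all sham libraries. The fibril-bound collagen gene Col14a1 differed by 0.66 in OVX-PBS and 0.47 ± 0.13 in OVX-ZA, and the tendon proteoglycan gene Kera by 1.16 and 0.86 ± 0.31. Nr4a1, an immediate early nuclear receptor, differed by 0.77 and 0.73 ± 0.24. Thus OVX-ZA stood on the side of OVX-PBS in these genes and was separate from sham.

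In the tendon and periosteum list 5 of 17 genes were separate and higher, namely Tnmd, Kera, Col14a1, Ogn and Postn, and 1 lower, the tendon factor Scx (-0.34 ± 0.12), with a median of 0.19. The list's median was 0.47 for OVX-PBS against sham. Of 28 immediate early genes 4 were separate and higher, Fos, Egr3, Nr4a1 and Klf6, with a median of 0.17 beside 0.45 for OVX-PBS.

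In the list of glucocorticoid targets and clock genes, 5 of 22 were separate and higher and all 5 belong to the clock. Dbp, a clock output factor, read 31.4, 21.6 and 20.9 CPM in sham and 52.9, 41.2 and 41.2 in OVX-ZA (0.87 ± 0.23), beside 31.9, 43.9 and 30.6 in OVX-PBS. Nr1d2 differed by 0.51 ± 0.17, Per3 by 0.38 ± 0.12, Ciart by 0.40 ± 0.29 and Tef by 0.27 ± 0.16. Nfil3, which represses the targets of Dbp, was separate and lower at 15.2, 19.7 and 20.1 against 11.1, 11.3 and 14.8 CPM (-0.57 ± 0.21). The time of day at which tissue was taken is not given in the sources used here.

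In the pre-B and B cell list 21 of 26 genes were above sham in OVX-ZA, 2 of them separate and higher, Vpreb2 and Igll1, and OVX-PBS was higher still in the genes named here. Vpreb1, a subunit of the pre-B cell receptor, read 1.39, 2.73 and 2.09 CPM in sham, against 4.69, 5.57 and 6.74 in OVX-PBS, while the OVX-ZA libraries read 1.90, 2.95 and 2.19. OVX-ZA overlapped with sham (log2 0.19 ± 0.40, 95% interval -0.68 to 1.05) and lay below every OVX-PBS library. Its partner Igll1 read 2.26, 3.15 and 2.7 in sham, against 4.63, 6.94 and 7.94 in OVX-PBS, while the OVX-ZA libraries read 3.30, 3.98 and 3.26 (0.38 ± 0.41), just above sham. Vpreb2, a close copy of Vpreb1, read 0.0645, 0.197 and 0.108 CPM in sham and 0.247, 0.268 and 0.371 in OVX-ZA (1.23 ± 0.59), beside 0.457, 1.07 and 0.640 in OVX-PBS, and how reads were shared between the copies is uncertain. For OVX-ZA against OVX-PBS the log2 differences were -1.27 ± 0.39 for Vpreb1 and -0.89 ± 0.40 for Igll1, and neither passed the adjusted edgeR test. Over the 26 genes of the pre-B and B cell list the median was 0.19 for OVX-ZA and 0.50 for OVX-PBS against sham.

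The pathway that zoledronic acid blocks showed little difference from sham in its transcripts. Fdps, the gene of the drug's target enzyme, read 26.1, 28.6 and 20.4 CPM in sham and 21.7, 25.5 and 21.8 in OVX-ZA (log2 -0.12 ± 0.12, 95% interval -0.39 to 0.15). Hmgcs1 (-0.05 ± 0.18), an early enzyme of the pathway that responds to cellular sterols, and Ggps1 (-0.05 ± 0.14), which makes the lipid downstream of Fdps, overlapped too. Fdps was at 0.23 in the lymph-carrying libraries and -0.32 in the rest, so its sign is not settled. Of 28 genes of mevalonate and cholesterol synthesis 22 were below sham, 2 were separate and lower, Mvk (-0.26 ± 0.13) and Tm7sf2 (-0.31 ± 0.14), and the median was -0.08. In OVX-PBS the list's median was -0.20. Tibia RNA mixes many cell types, of which osteoclasts are one, and the drug's action in them was not measured by these transcripts.

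Fat genes overlapped throughout. None of 23 white adipocyte genes was separate (0 of 23; median -0.19), with Adipoq at 114, 62.0 and 127 CPM in sham and 107, 104 and 72.3 in OVX-ZA, and Pparg at 24.1, 13.3 and 21.4 against 19.5, 21.9 and 17.9. Leptin (Lep) differed by 0.25 ± 0.36. The fatty acid synthase gene Fasn read 1653, 391 and 1110 CPM in sham against 665, 690 and 602 in OVX-ZA, and the sham libraries were the more widely spread.

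Several marrow lists lay below sham in nearly every member while their libraries overlapped. All 26 cell cycle genes were below sham (median -0.33, 0 separate), as were all 20 megakaryocyte genes (median -0.28, 0 separate), 24 of 25 erythroid genes (median -0.32, 2 separate) and 24 of 25 neutrophil genes (median -0.46, 2 separate and lower). Over all genes tested 13207 of 21761 were below sham. By library the mean of the cell cycle genes was 5.16, 5.88 and 5.67 log2 CPM in sham and 5.29, 5.35 and 5.22 in OVX-ZA, so sham replicate 1 stood lower than every OVX-ZA library. The erythroid means were 7.32, 7.83 and 7.97 in sham and 7.47, 7.42 and 7.43 in OVX-ZA, and the neutrophil means 5.25, 6.36 and 5.2 against 5.35, 5.31 and 5.08. The megakaryocyte means were 4.39, 5.08 and 4.43 in sham and 4.59, 4.39 and 4.23 in OVX-ZA. The high libraries were sham replicates 2 and 3 for the erythroid and cell cycle lists and sham replicate 2 alone for the neutrophil and megakaryocyte lists. Within these lists Klf1, the erythroid master factor (-0.49 ± 0.42), Rhd (-0.39 ± 0.38) and the neutrophil stefin gene Stfa1 (-1.18 ± 0.55) were separate and lower. Stfa1 was near the floor, at 0.32, 0.56 and 0.47 CPM in sham and 0.08, 0.22 and 0.25 in OVX-ZA. The single neutrophil gene above sham was Mmp9.

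Cartilage genes had a list median of 0.38 (0.51 in OVX-PBS), with 2 of 21 separate and higher and 2 lower. Col9a1 read 1.71, 2.85 and 3.97 CPM in sham and 5.94, 4.69 and 4.95 in OVX-ZA (0.87 ± 0.57), and Matn3, another cartilage matrix gene, differed by 0.82 ± 0.55. Col11a1 and Col11a2 (-0.66 ± 0.28), the type XI chains that osteoblasts also make, were the lower ones. The 20 endothelial genes had a median of -0.01, and Flt4, the receptor of lymphatic vessels (-0.35 ± 0.14), and the tight junction gene Cldn5 (-0.32 ± 0.14) were separate and lower. In the interferon list 0 of 26 genes were separate.

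**Figure D5:**
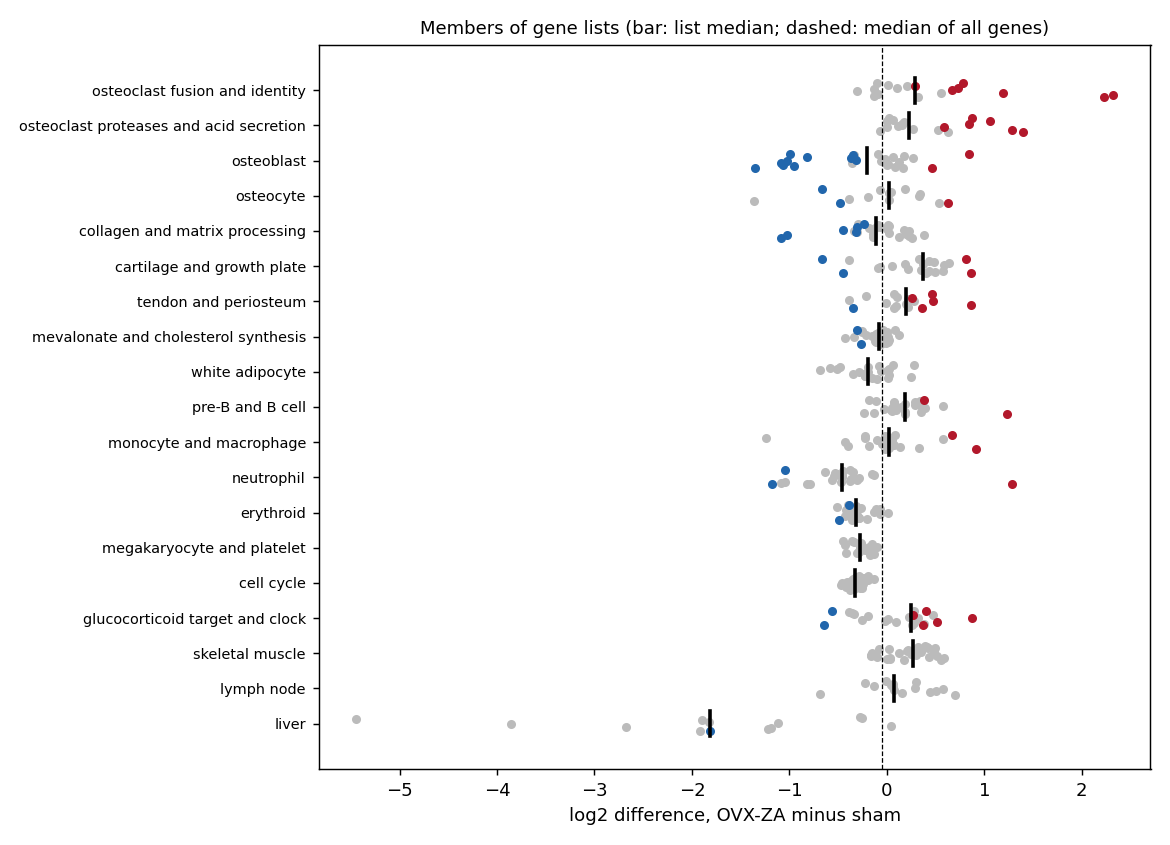
Each point is 1 tested member of a gene list, with its log2 difference of OVX-ZA minus sham on the x axis and the lists on the y axis; red points are separate and higher, blue points separate and lower, the black bar is the list median and the dashed line the median of all genes (-0.05). Osteoclast lists reach 2.32 and 1.40, osteoblast and collagen lists reach -1.36 and -1.08, and the cell cycle and megakaryocyte members all lie left of 0 in grey.

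Liver transcripts differed with the sham libraries. Alb read 13.4 and 13.3 CPM in sham replicates 1 and 2, 0.829 in sham replicate 3 and 1.65 to 3.49 in OVX-ZA, and 12 of 13 liver genes were below sham (median -1.81, 1 separate). Their part in the other results was not tested. Ctsk, Bglap and Col1a1 are separate over all sham and OVX-ZA libraries, so the split by lymph node transcripts could not change their direction. Only the sizes could differ. Ctsk differed by 1.85 and 1.14, Bglap by -1.20 and -1.41 and Col1a1 by -1.08 and -0.94 in the lymph-carrying and the other libraries.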

How the data were processed

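Poly(A) RNA of mouse tibia was sequenced in 14 libraries as single reads of 75 nt from a stranded mRNA kit, per the labels' protocols. The build was mm10 per the submitters' processing notes, which also name STAR 2.7.8a, Partek, CASAVA 1.8.1 and Bowtie2 2.2.5 without their roles. The sources used here do not give the counting tool or its use of strand. The authors deposited a table of estimated counts, not normalized, for 55291 gene symbols, of which 20.7% of values lay over 0.01 away from the nearest whole number. A second deposited table holds log2 values, which are the same estimated counts with 1e-04 added, logged and shifted by 1 library constant (largest departure 0.0055), and it was not used further. All columns matched sample titles, and 0 were unmapped.

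Estimated counts were rounded, filtered by edgeR's filter by group (21761 genes kept) and scaled by TMM. One quasi-likelihood fit (edgeR 4.0.16, R 4.3.3, limma 3.58.1) estimated 1 mean for each group from the 14 libraries. Its residual degrees of freedom were 9 and its biological coefficient of variation 25%. OVX-ZA minus sham was tested two-sided, with Benjamini-Hochberg adjustment over all genes kept and a threshold of 0.05. OVX-PBS minus sham and OVX-ZA minus OVX-PBS come from the same fit and called 0 genes each (594 and 731 genes at an unadjusted p below 0.05, smallest adjusted p 0.913 and 0.111). Values per library are TMM-scaled CPM, differences are log2 fold changes ± standard error, and intervals are 95%. Symbols were matched to the mm10 annotation (53292 of 55291, 96.4%), which gave IDs and coordinates. Scripts were tested on simulated counts.

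Named are the 5 genes per direction with the smallest p among those with separate libraries and at least 2 CPM (none passed; predicted genes, symbols made of a clone or locus ID such as CT010467.1, pseudogenes and receptor segments left out), a set of bone, fat and pathway genes, and the 4 members with the smallest p of each of 37 lists; fewer are printed for lists treated briefly. Genes outside this rule were chosen after their values were seen. They are the members listed by their separation (Bglap2, Bglap3, Smpd3, Ifitm5, Serpinf1, Mmp13, Mmp14, Siglec15, Mitf, Sparc, P3h1, Mepe, Tnmd, Ogn, Fos, Egr3, Klf6, Nr1d2, Ciart, Tef, Nfil3), the overlapping Itgb3, Car2, Clcn7 and Ggps1, and those said so in the text. Some genes that the rule selects are not reported here. The lists, the members and the rule were chosen with earlier results of these data known. Alternatives were DESeq2 1.42.0, other scalings, filters, covariates and subsets of libraries, and leaving out each library. No pair of libraries was so alike as to be counted as 1.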

Additional observations from a re-analysis of the deposited data

How the results depend on the processing

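The count of genes called in OVX-ZA against sham, 0 as reported, was recomputed under 27 alternatives and stayed 0 in 22. Many of those 22 left out libraries, which lowers power, so their 0 says little. DESeq2 called 15 genes (12 higher, 3 lower). A fit without OVX-PBS replicate 1 and OVX-HA replicate 2, which lack central nervous system transcripts, called 2 (Bglap and Cfap161, both lower), and a covariate for central nervous system transcripts called 5 (3 higher, Ocstamp, Dcstamp and Cyp2s1, and 2 lower, Bglap and Cfap161). No filter on low counts gave 2 (both higher, Ocstamp and Dcstamp). A fit of the 9 libraries of sham, OVX-PBS and OVX-ZA, chosen after seeing the data, gave 1 (lower, Bglap). Leaving out each library gave 0 genes each time, with 382 (without OVX-ZA replicate 1) to 923 (without sham replicate 3) at an unadjusted p below 0.05. In fits of the 6 libraries alone, also with each left out, 0 passed. The replicate numbers do not pair the libraries (correlation of deviations of same-numbered libraries -0.184, 0.0402 and -0.135), and the replicate block called 0 genes over the 6 libraries and 0 over all 14, with 547 and 532 at an unadjusted p below 0.05. Of 209 genes recomputed, 156 kept their sign in each of the 27 alternatives that tested them. Many of the 209 were named for their separate libraries, and leaving out libraries could not change the sign of those. The alternative with an adjusted p threshold of 0.10 reuses the reported fit and could change no sign. The count is therefore a description. Among genes with an unadjusted p below 0.05 as reported, those that reversed were, within the lymph-carrying libraries, Greb1 (0.063), Dhcr7 (0.047), Akr1d1 (0.71) and Ttr (0.87), and the cause was not tested. Genes above that p, such as Fdps and Itgb3, changed sign between subsets too. Other scalings moved the median of all genes by less than 0.1. OVX-ZA replicate 1, at 11.9 M counts, is the least precise library for genes near 1 CPM.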

Other observations

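The 4 transcripts that follow were not chosen as a group from a list. The libraries were made from poly(A) RNA, and whether the counts of these transcripts vary with that selection step was not tested. Rn7sk (chr9:78175303-78175633, minus strand), a small nuclear RNA that restrains transcription elongation, read 8.97, 10.8 and 22.1 CPM in sham and 1.81, 4.29 and 2.76 in OVX-ZA (log2 -2.22 ± 0.58). CT010467.1, annotated as ribosomal RNA, read 86.9, 66.1 and 246 CPM against 25.1, 29.9 and 27.5 (-2.27 ± 0.57; DESeq2 BH-adjusted p = 0.0371). Without sham replicate 3 its difference was -1.47. Mir6236, a small locus annotated as a miRNA, read 2.77, 0.789 and 4.65 against 0.330, 0.491 and 0.371. The histone gene H2ac18 read 0.516, 1.47 and 0.577 CPM against 0.0825, 0.0894 and 0.0825. In OVX-PBS Rn7sk read 10.2, 3.71 and 4.82 CPM and CT010467.1 105, 41.7 and 33.5. Over the 11 libraries without zoledronic acid Rn7sk ran from 2.33 to 22.1 CPM, CT010467.1 from 22.1 to 246 and Mir6236 from 0.389 to 4.65. Each of these ranges overlapped with OVX-ZA, whereas that of H2ac18 (0.122 to 1.46) lay above it.

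Ifi202b (chr1:173962568-173982744, minus strand), an interferon-inducible DNA sensor of the p200 family, read 1.32, 0.938 and 0.536 CPM in OVX-ZA and at most 0.0543 CPM in each of the 11 libraries without zoledronic acid. The 26 genes of the interferon list had a median of -0.03 with 0 separate. It has close relatives in the genome, so reads shared with them are uncertain. The membrane peptidase gene Mmel1 (1.39, 1.94 and 1.41 CPM in sham, 0.660, 0.670 and 0.825 in OVX-ZA) and the cytochrome P450 gene Cyp2b10 (0.968, 0.676 and 0.901 against 0.330, 0.268 and 0.206) were lower. Over the 11 libraries without zoledronic acid Cyp2b10 ran from 0.131 to 0.968 CPM, overlapping with OVX-ZA. Tgfbr1, a receptor of the growth factor TGF-beta that bone matrix stores, read 44.4, 41.0 and 39.8 CPM in sham and 65.6, 50.2 and 56.7 in OVX-ZA (0.46 ± 0.12), and Mst1r, a receptor kinase of macrophages and osteoclasts, 13, 15 and 11.3 against 31.8, 17.2 and 22.6 (0.86 ± 0.23). None of these genes passed the adjusted edgeR test, and all were picked after their values were seen, except Rn7sk.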
